A study of Mus musculus with 7 samples.

Results

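Ccdc80 encodes a secreted matrix protein whose repeated domain is shared with the sushi-repeat proteins encoded by Srpx and Srpx2, and the 3 genes were described together in sorted adrenal cells. They were taken by gene symbol from the authors' annotated expression table, where each had a single transcript cluster, so 3 of 20719 measured genes are the subject here. The Wnt+ group (3 arrays) was GFP-positive cells of TCF/Lef:H2B-GFP mice, in which multimerised TCF/LEF sites and a minimal Hspa1b promoter drive a histone-GFP fusion. The SF1+ group (4 arrays) was GFP-positive cells of Sf1:eGFP mice, in which a genomic fragment of Nr5a1 drives GFP. All mice were C57BL/6J males of 6 weeks with no treatment named in the labels, and each array held RNA from cells sorted from 10 pooled adrenals. Each group is 1 transgenic line, so effects of the line and of the sorted population cannot be told apart. The labels name 4 sorts for each line, and 3 Wnt+ samples were analysed here.

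Canonical Wnt signalling stabilises beta-catenin, which enters the nucleus and activates genes through TCF/LEF factors. In the adrenal cortex it is active mainly in the outer zone, and it restrains the steroid synthesis that ACTH drives in the inner zone. Ccdc80 was studied in this setting as a secreted, Wnt-induced inhibitor of steroidogenesis. Srpx is also known as Drs, a gene first found as repressed in cells transformed by v-src. The protein of Srpx2 is known in human cells as a ligand of the urokinase receptor, and in the brain as a promoter of synapse formation.

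The promoters of Srpx and Srpx2 are shown because Wnt-driven genes are often bound by TCF/LEF factors near their start. The windows are those of RefSeq (GRCm38.p6) and run from 250 bases before to 50 after the start of the gene, which gave a sequence for 2 of the 3 genes. Capitals mark the core letters of the TCF/LEF motif, CTTTG, or their reverse complement CAAAG. The Srpx window is chrX:10117591-10117890 on the minus strand and the Srpx2 window is chrX:133908175-133908474 on the plus strand.
Srpx: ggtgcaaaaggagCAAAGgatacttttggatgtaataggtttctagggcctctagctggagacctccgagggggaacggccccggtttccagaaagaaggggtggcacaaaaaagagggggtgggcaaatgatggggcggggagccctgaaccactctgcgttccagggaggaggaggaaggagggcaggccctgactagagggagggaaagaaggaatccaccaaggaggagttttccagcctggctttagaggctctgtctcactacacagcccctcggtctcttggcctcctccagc
Srpx2: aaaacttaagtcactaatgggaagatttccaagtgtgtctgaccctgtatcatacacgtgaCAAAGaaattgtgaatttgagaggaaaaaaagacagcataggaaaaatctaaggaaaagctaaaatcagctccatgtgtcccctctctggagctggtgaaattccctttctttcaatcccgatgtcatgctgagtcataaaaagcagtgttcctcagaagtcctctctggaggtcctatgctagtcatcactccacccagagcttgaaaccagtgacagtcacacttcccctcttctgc
Each window held 1 core match, 237 bases before the start of Srpx and 189 bases before the start of Srpx2. A core match was present in 53.9% of all 32851 windows, so its presence is common. The longer motif CTTTGAT (reverse ATCAAAG, which contains the core) was in neither window and in 3.73% of all, and the SF1 motif AAGGTCA (reverse TGACCTT) was in neither and in 4.72% of all. These are letter matches only.

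Values are log2 expression from the robust multi-array average (RMA), differences are Wnt+ minus SF1+ on that log2 scale, and levels of different genes are not compared because probes differ. The array medians over all genes lay between 3.13 and 3.23. Nr5a1, whose fragment drives GFP in the SF1+ line, was at 7.30 in the libraries labelled Wnt+ and 5.75 in those labelled SF1+ (difference 1.55, SE 0.29, limma adjusted p = 0.0938), so directions here rest on labels that Nr5a1 ran against. Over all genes, 53 of 20719 (0.256%) passed a limma adjusted p of 0.05, with 11 higher (0.0531%) and 42 lower (0.203%) in Wnt+. That count was 312 without Wnt+ replicate 1, 8 without Wnt+ replicate 2, 2 without Wnt+ replicate 3, 3 without SF1+ replicate 4 and 1 without SF1+ replicate 2 or replicate 3. None of Ccdc80, Srpx and Srpx2 was among the 53, and 2 of the 3 had an unadjusted limma p under 0.05, against 15.5% of all genes.

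Ccdc80 (cluster 10435948, Entrez 67896, chromosome 16) lay above the array median in all 7 arrays, by 0.35 in SF1+ replicate 3 up to 1.51 in Wnt+ replicate 3. It had log2 values of 4.58, 4.28 and 4.74 in Wnt+ replicates 1, 2 and 3, and of 4.19, 4.14, 3.49 and 3.96 in SF1+ replicates 1, 2, 3 and 4. Every Wnt+ array lay above every SF1+ array, with a gap of 0.09 between the lowest Wnt+ and the highest SF1+ array. Such a separation upward was found for 7.04% of all genes. The mean was 4.53 ± 0.24 in Wnt+ (SD, n = 3) and 3.94 ± 0.32 in SF1+ (SD, n = 4), a difference of 0.59 (SE 0.20, 95% interval 0.12 to 1.06). On the linear scale this is 1.50-fold (1.09 to 2.08). The unadjusted limma p was 0.0205, and the limma adjusted p of 0.227 missed the threshold. The exact two-sided permutation p over the 35 splits of the arrays was 0.0286, the smallest that 3 against 4 arrays allow.

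The Ccdc80 difference varied most with the lowest array of each group. SF1+ replicate 3 was at 3.49, below the 3.96 to 4.19 of the other SF1+ arrays, and without it the difference was 0.44. Wnt+ replicate 2 was at 4.28, below its group's other arrays, and without it the difference was 0.72. These are the lowest and the highest of the 7 differences with 1 array left out, and the limma adjusted p lay between 0.213 and 0.397 in those fits.

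**Figure D1:**
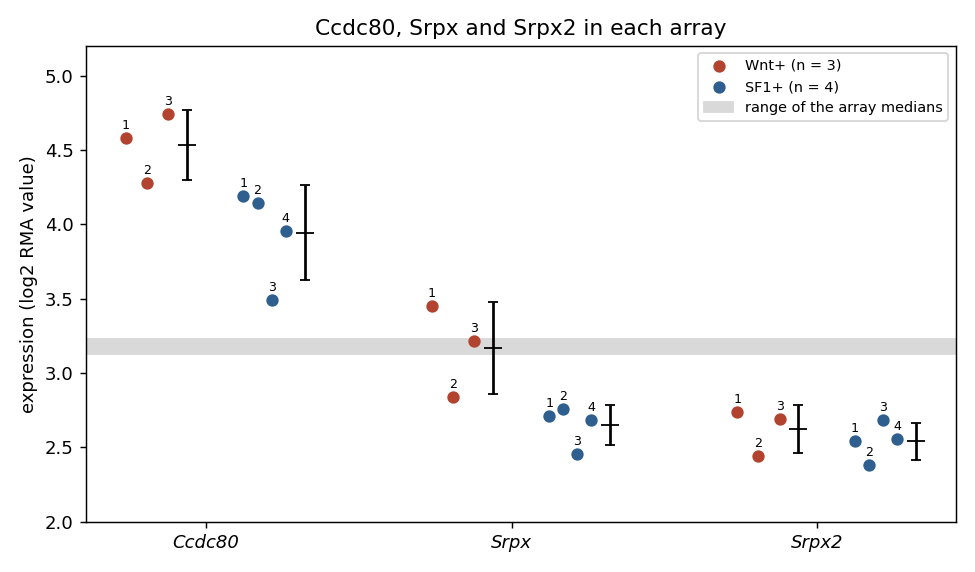
Log2 expression of Ccdc80, Srpx and Srpx2 in each array, with Wnt+ (red, 3 arrays) left of SF1+ (blue, 4 arrays), replicate numbers above the points, and mean ± SD as bars. The grey band spans the array medians of 3.13 to 3.23. Ccdc80 is above the band in all arrays, Srpx lies around and below it, and Srpx2 is below it throughout.

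Srpx (cluster 10603583, Entrez 51795, X chromosome) showed the same order of groups at a dim signal. Its log2 values were 3.45, 2.84 and 3.22 in Wnt+ replicates 1, 2 and 3, and 2.71, 2.76, 2.46 and 2.68 in SF1+ replicates 1, 2, 3 and 4. Again every Wnt+ array was above every SF1+ array, by at least 0.08. All 4 SF1+ values and 2 of the 3 Wnt+ values lay below their own array's median, a range in which RMA compresses differences. The mean was 3.17 ± 0.31 in Wnt+ (SD, n = 3) and 2.65 ± 0.13 in SF1+ (SD, n = 4). The difference was 0.52 (SE 0.16, 95% interval 0.15 to 0.89), or 1.43-fold (1.11 to 1.85). Its unadjusted limma p was 0.0128 and its limma adjusted p 0.189, with an exact permutation p of 0.0286.

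The spread of Srpx was wider in Wnt+ than in SF1+, with ranges of 0.61 in Wnt+ and 0.30 in SF1+. Wnt+ replicate 1 was the highest array and Wnt+ replicate 2 the lowest of its group. Without replicate 1 the difference was 0.38 and without replicate 2 it was 0.68 (limma adjusted p = 0.135), the lowest and highest of the leave-one-out values. In SF1+, replicate 3 was the lowest array for Srpx, as it was for Ccdc80.

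Srpx2 (cluster 10601659, Entrez 68792, X chromosome) had no separation between the groups. Its log2 values were 2.74, 2.44 and 2.69 in Wnt+ replicates 1, 2 and 3, and 2.54, 2.38, 2.68 and 2.56 in SF1+ replicates 1, 2, 3 and 4. The groups overlapped, and all 7 values were below the array medians. The mean was 2.62 ± 0.16 in Wnt+ (SD, n = 3) and 2.54 ± 0.12 in SF1+ (SD, n = 4). The difference of 0.08 (SE 0.11) had a 95% interval of -0.18 to 0.34 and a limma adjusted p of 0.792 (exact permutation p = 0.429). The interval leaves room for a change of up to 1.27-fold upward, and at this dim signal a larger change in RNA could be compressed.

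Wnt+ replicate 2 was the lowest of the Wnt+ arrays for Ccdc80, for Srpx and for Srpx2. This is not particular to the 3 genes. Wnt+ replicate 2 had the lowest median of all 7 arrays, 3.13. Among Wnt+ arrays it was also the lowest for the capsule and fibroblast, chromaffin, endothelial and leukocyte markers given below, but the highest for the steroidogenic genes. In SF1+ the order differed between the 3 genes, since replicate 3 was lowest for Ccdc80 and Srpx but highest for Srpx2.

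Whether the Wnt+ minus SF1+ difference varied between genes was tested on the difference of their log2 values within each array, over 3 pairs. The group differences of Ccdc80 and Srpx were 0.07 apart (exact permutation p = 0.657). The group difference of Ccdc80 was larger than that of Srpx2 by 0.51 (exact permutation p = 0.0857). That of Srpx was larger than that of Srpx2 by 0.43 (exact permutation p = 0.0571). Both comparisons with Srpx2 had an adjusted p of 0.129 over the 3 pairs, so none of the pairs passed. The smallest unadjusted p this design allows is 0.0286. Srpx2 lay below the array medians on all 7 arrays, where differences are compressed. These tests therefore do not show whether its group difference departs from those of the other 2 genes.

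**Figure D2:**
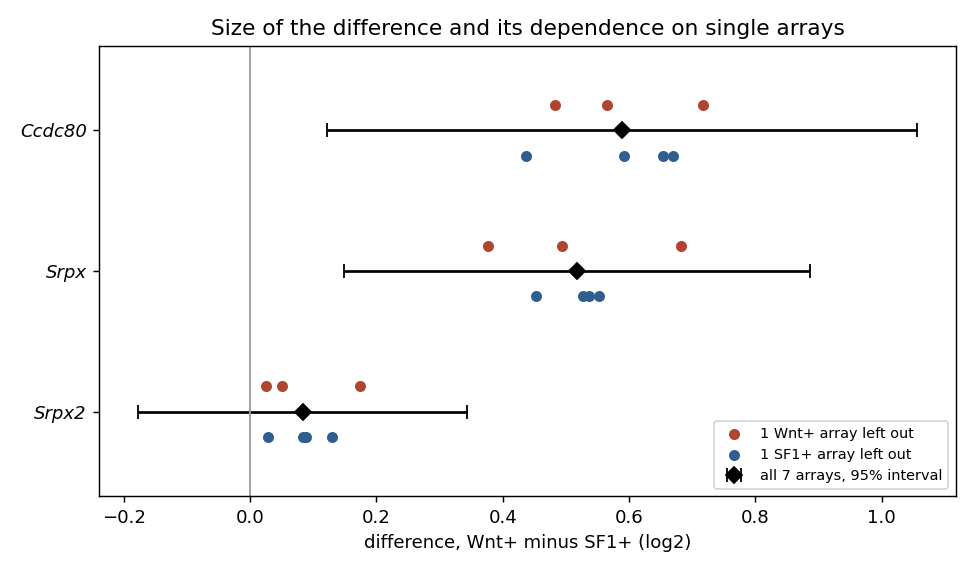
Difference between Wnt+ and SF1+ arrays (log2, horizontal axis) for each gene. Black diamonds with bars are the fit to all 7 arrays with its 95% interval, red points leave out 1 Wnt+ array and blue points 1 SF1+ array. Ccdc80 ranged from 0.44 to 0.72 and Srpx from 0.38 to 0.68 with 1 array left out, while the interval of Srpx2 spans 0.

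A further readout of the 3 genes came from the authors' deposited table, which lists, without sample values, a fold change and a paired p-value for 4 pairs of Bio and vehicle in tumor cell lines of the mouse adrenal cortex. Bio is the common short name of a GSK3 kinase inhibitor that stabilises beta-catenin, although the table does not spell the name out. With Bio, Ccdc80 was 4.36-fold higher in the authors' deposited table (2.12 on the log2 scale, paired p = 0.00235). That fold was the 8th largest of 20719 genes. A deposited fold of at least 2 with a deposited p under 0.05 was reached by 88 genes (0.425%). After Benjamini-Hochberg adjustment of the authors' p-values over all genes Ccdc80 was at 0.0254. By that adjustment 3912 of the 20719 genes were under 0.05, so such a value was common. Srpx had a fold of 1.03 (paired p = 0.350) and Srpx2 a fold of 1.09 (paired p = 0.277) in the authors' deposited table, and neither was past the threshold. Of the 3 genes, Ccdc80 was the one with a deposited Bio fold of at least 2.

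The genes of the Bio list gave a scale for the Ccdc80 difference in sorted cells. Of the 88 genes, 57 had a positive difference between Wnt+ and SF1+ cells, against 54.8% of all genes, and their median difference was 0.09, against 0.02 over all genes. Every Wnt+ array was above every SF1+ array for 8 of the 88, Ccdc80 among them, where 7.04% of all genes were so separated. These directions rest on the labels of the sorted groups. With limma, 10 of the 88 were higher at an unadjusted p under 0.05, against 7.61% of all genes. Tnfrsf19, a receptor of the TNF family and a Wnt target, was another of them, at 4.03 in Wnt+ and 3.42 in SF1+ (difference 0.61, SE 0.17, limma adjusted p = 0.168), with a fold of 2.08 with Bio in the authors' deposited table.

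Wnt target genes were compared over a list of 24 members. None passed over all genes with limma, 4 had a higher value and 0 a lower one at an unadjusted p under 0.05 (7.61% and 7.89% of all genes), and the list's median difference was 0.19, against 0.02 over all genes. The list's mean level was 4.22 to 4.37 in the Wnt+ arrays and 3.96 to 4.17 in the SF1+ arrays. Axin2, a feedback inhibitor of the pathway, was at 4.83 in Wnt+ and 4.16 in SF1+, a difference of 0.67 (SE 0.41, limma adjusted p = 0.50). In the authors' deposited table Axin2 had a fold of 8.09 with Bio, the 3rd largest. Lef1, a DNA-binding partner of beta-catenin, differed by 0.22 (SE 0.15, limma adjusted p = 0.558) and had a deposited Bio fold of 1.19. Ccdc80 therefore had a difference of similar size to that of Axin2, with a smaller standard error. With Bio, 9 of the 24 targets were higher and 8 lower at a p under 0.05 in the authors' deposited table, where this held for 18.2% and 17.3% of all genes.

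Genes of steroid synthesis, the process that Ccdc80 is described to inhibit, stood differently in the 2 experiments. Over a list of 15 enzymes, cofactors and regulators, 14 had a positive difference in Wnt+ cells, 1 passed over all genes with limma and 13 were higher at an unadjusted p under 0.05. Over all genes these shares were 54.8%, 0.0531% and 7.61%. The median difference was 1.00, against 0.02 over all genes. The member that passed was Mrap, the accessory protein of the ACTH receptor (1.68, SE 0.18, limma adjusted p = 0.0396). Star, which moves cholesterol into mitochondria, was at 10.12 in Wnt+ and 9.09 in SF1+ (limma adjusted p = 0.126). In the authors' deposited table Star had a Bio fold of 0.270 (paired p = 0.00333). Cyp11a1, the side-chain cleavage enzyme, differed by 1.00 in sorted cells (SE 0.20, limma adjusted p = 0.111). Cyp11b1, which makes corticosterone, differed by 1.69 (SE 0.24, limma adjusted p = 0.0561). The ACTH receptor gene Mc2r differed by 0.84 (SE 0.30, limma adjusted p = 0.253). The Bio folds of the authors' deposited table were 0.534 for Cyp11a1, 0.558 for Cyp11b1 and 0.240 for Mc2r, with paired p of 3.43e-04, 0.00418 and 1.85e-04 in that order. With Bio, 9 of the 15 were lower and 1 was higher at a deposited p under 0.05 (17.3% and 18.2% of all genes). The list's median Bio fold was 0.698, against 0.991 over all genes. In the sorted cells Ccdc80 and all genes of the list but Cyp17a1 had positive differences. In the Bio comparison of the authors' deposited table the fold of Ccdc80 was above 1. Those of all genes of the list but Por, the electron donor of microsomal steroid hydroxylases, were below 1. Some of these were near 1, with Cyp21a1 at 0.937, Cyp11b2 at 0.924 and Cyp17a1 at 0.921. Their deposited paired p were 0.0735, 0.250 and 0.123 in that order.

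**Figure D3:**
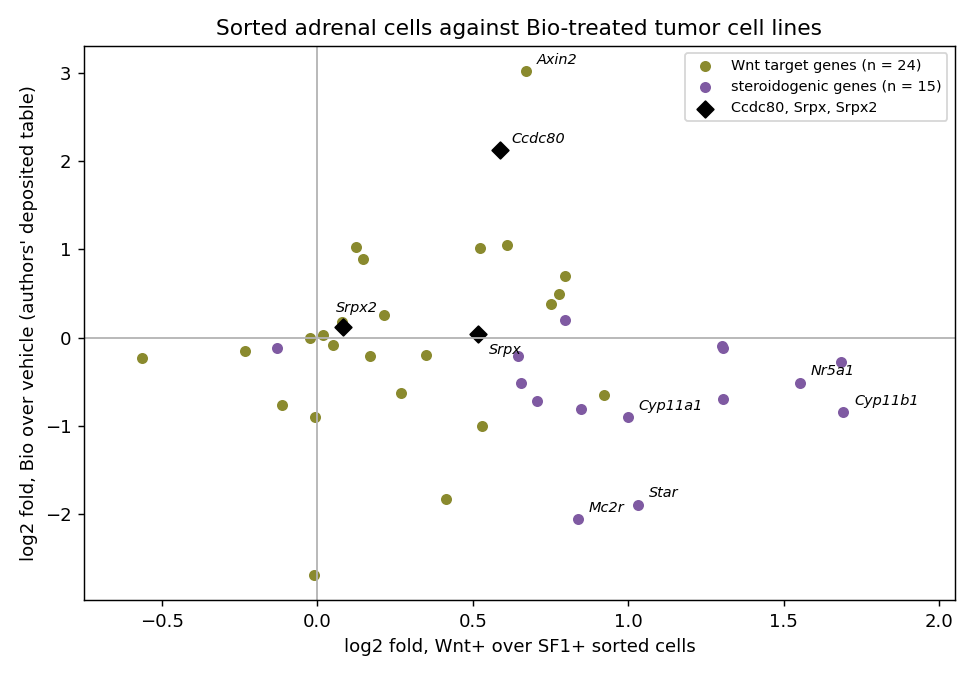
Log2 fold of Wnt+ over SF1+ sorted cells (horizontal) against the log2 fold of Bio over vehicle in the authors' deposited table (vertical), for Ccdc80, Srpx and Srpx2 (black diamonds), 24 Wnt target genes and 15 steroidogenic genes. Ccdc80 lies at 0.59 and 2.12 and Axin2 at 0.67 and 3.02, while Star and Mc2r lie to the right of 0 and below it.

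The other genes with sushi modules, the short repeats that SRPX and SRPX2 share with complement proteins, were counted over a list. Of 37 measured genes of 40 listed, none passed over all genes with limma, 2 were higher and 3 were lower at an unadjusted p under 0.05, and 23 differences were positive. Over all genes 7.61% were higher, 7.89% lower and 54.8% positive, so these counts are no result about the list. The median difference was 0.05, and it lay between 0.00 and 0.09 with 1 array left out, lowest without Wnt+ replicate 1 and highest without Wnt+ replicate 2. The complement factor Cfb (-1.41, SE 0.39) and the interleukin-2 receptor chain Il2ra (-0.31, SE 0.09) were among those with a low unadjusted p downward, and upward these were Bcan, a brain proteoglycan (0.96, SE 0.33), and Sez6l2. Sez6l2, a neuronal membrane protein, was at 3.73 in Wnt+ and 3.33 in SF1+ (difference 0.41, SE 0.14, limma adjusted p = 0.237). Of 10 leukocyte markers, all had a negative difference and 3 passed the threshold, Siglech, Nkg7 and Il2rb. Their mean level was 4.58 to 4.87 in Wnt+ and 5.60 to 6.84 in SF1+. In 20 of the 37 sushi-module genes all 7 arrays lay below the array medians, as they did for Srpx2.

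The receptor and partners known for human SRPX2 were counted in the same way. Of 11 listed genes of the urokinase system, HGF signalling and related partners, none passed with limma, 1 upward and 1 downward difference had an unadjusted p under 0.05, and 8 differences were negative (median -0.13). Over all genes 15.5% had such a p in either direction and 45.2% of differences were negative. The list's median was -0.25 without SF1+ replicate 1, -0.07 without SF1+ replicate 3 and -0.08 without Wnt+ replicate 3. Plaur, the urokinase receptor, was at 7.14 in Wnt+ and 8.45 in SF1+ (difference -1.31, SE 0.39, limma adjusted p = 0.189). Plau, the urokinase itself, differed by -0.93 (SE 0.49, limma adjusted p = 0.430). Ctsb, a lysosomal protease, differed by -0.05 (SE 0.24), and Hgf was below the array medians on average, at 2.47 in Wnt+ and 2.60 in SF1+. Foxp2, a transcription factor known in human cells to repress SRPX2, was at 3.24 in Wnt+ and 2.88 in SF1+ (difference 0.36, SE 0.10, limma adjusted p = 0.159). Every Wnt+ array lay above every SF1+ array for Foxp2, as for 7.04% of all genes. Its signal was dim. All its SF1+ values (2.76 to 2.99) and its value of 3.20 in Wnt+ replicate 3 lay below their own array's median.

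CCDC80 is deposited in the matrix, so other matrix-associated secreted proteins were set beside it. Of 22 such genes, none passed over all genes with limma, 5 reached an unadjusted p under 0.05 upward and 0 downward (7.61% and 7.89% of all genes), and the median difference was 0.19. That median was 0.51 without Wnt+ replicate 2 and 0.08 without Wnt+ replicate 3. Fbln1, a fibulin of elastic matrix, was at 4.37 in Wnt+ and 3.70 in SF1+ (difference 0.67, SE 0.14, limma adjusted p = 0.113). Postn, the matrix protein periostin, differed by 1.26 (SE 0.40, limma adjusted p = 0.206). Of the 22 genes, 12 were lower and 2 higher with Bio at a p under 0.05 in the authors' deposited table (17.3% and 18.2% of all genes).

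Markers of other cells also differed between the groups. Over all genes 54.8% of differences were positive and 45.2% negative, and an unadjusted p under 0.05 was reached upward by 7.61% and downward by 7.89%, with which the counts of each marker list are to be compared. Fewer cells of a type and less RNA per cell cannot be told apart in these bulk samples. Ccdc80 is known as abundant in stromal cells, and of 16 capsule and fibroblast markers 13 had a positive difference (median 0.55), none passed with limma, and Mfap5 upward and Thy1 downward had an unadjusted p under 0.05. Their mean level was 5.64, 4.35 and 5.55 in Wnt+ replicates 1, 2 and 3, and 4.36, 5.19, 4.90 and 4.67 in SF1+ replicates 1, 2, 3 and 4. The list's median was 0.93 without Wnt+ replicate 2, 0.33 without Wnt+ replicate 1 and 0.33 without Wnt+ replicate 3, and 1 of the 16 genes lay below the array medians throughout. Wnt+ replicate 2 was the lowest Wnt+ array both for Ccdc80 and for this list. Its list level of 4.35 lay close to the 4.36 of SF1+ replicate 1. Its Ccdc80 value lay 0.09 above that of the highest SF1+ array. Among the SF1+ arrays, replicate 1 was the lowest for the list and the highest for Ccdc80 (4.19, with replicate 2 at 4.14). In the list, Col1a1, a fibrillar collagen, differed by 0.51 (SE 0.29), Dcn, the matrix proteoglycan decorin, by 0.64 (SE 0.49) and Rspo3, the Wnt enhancer of the capsule, by -0.22 (SE 0.21). Their limma adjusted p lay between 0.464 and 0.699. The part of stromal cells in the Ccdc80 difference was not tested.

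All 10 chromaffin markers had positive differences (median 1.30), none passed with limma and 5 were higher at an unadjusted p under 0.05. Their mean level was 7.34, 6.07 and 7.09 in Wnt+ replicates 1, 2 and 3, and 5.76, 4.62, 5.51 and 6.06 in SF1+ replicates 1, 2, 3 and 4. Within Wnt+, replicate 1 was highest and replicate 2 lowest, the order of Srpx and also of Srpx2, which had no separation between the groups. The capsule and fibroblast, endothelial, Schwann, matrix-protein and sushi-module lists had that order too. Schwann cell markers were dim, with 4 of 8 below the array medians throughout, and all 8 were positive (median 0.14, with 2 past an unadjusted limma p of 0.05). The Schwann median was 0.21 without Wnt+ replicate 2. Whether chromaffin or Schwann cells had a part in the Srpx difference was not tested. All 12 endothelial markers were negative (median -1.60), with a mean level of 5.57 to 7.78 in Wnt+ and 8.04 to 8.52 in SF1+, none past the threshold with limma and 12 at an unadjusted p under 0.05. The endothelial median was -0.99 without Wnt+ replicate 2. Of 10 adipocyte markers 6 were positive, with a median of 0.02, none past the threshold with limma, and 1 upward and 1 downward with an unadjusted p under 0.05. The adipocyte median was 0.07 without Wnt+ replicate 1 and -0.06 without Wnt+ replicate 3. Of the labelled cortical cells, all 9 zona glomerulosa markers were positive (median 1.06, with 8 at an unadjusted limma p under 0.05 and 0 past the threshold). All 7 zona fasciculata markers were positive too (median 0.84, with 6 at an unadjusted limma p under 0.05 and Mrap past the threshold). These lists overlap with the steroid synthesis list above. Cyp11b2 and Hsd3b6 are in it from the glomerulosa list, and Cyp11b1, Mc2r, Mrap and Scarb1 from the fasciculata list.

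**Figure D4:**
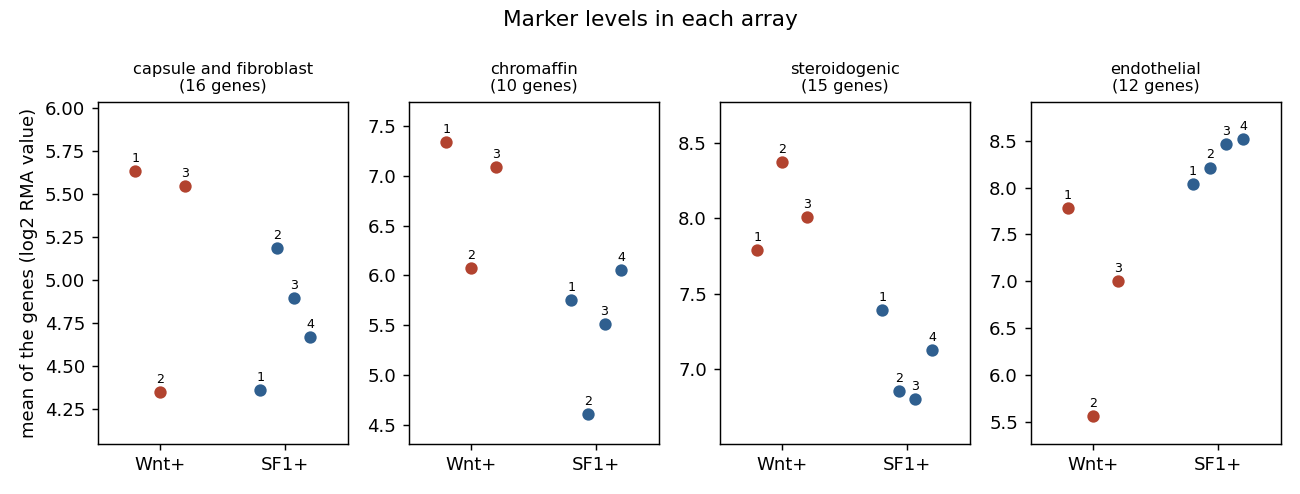
Mean log2 level of 4 marker lists in each array, with Wnt+ (red) left of SF1+ (blue) and replicate numbers above the points. The vertical axes differ and do not start at 0. Wnt+ replicate 2 is the lowest Wnt+ array for capsule and fibroblast, chromaffin and endothelial markers and the highest for steroidogenic genes.

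The genes whose pattern over the 7 arrays was most like each member were found by Pearson's r among named genes at or above the median gene mean (10057 genes for Ccdc80). The r values are a description over 7 arrays in 2 groups, chosen as the highest of many. For Ccdc80 these were St7, a membrane protein first described as a candidate tumour suppressor (r = 0.992), Pigl, an enzyme of GPI-anchor synthesis (0.967), the RNA-binding protein Rbms3 (0.967), Klhl26 (0.960) and Scoc (0.954). None of the 5 passed with limma, with Pigl at 4.34 in Wnt+ and 3.72 in SF1+ (difference 0.63, SE 0.14, limma adjusted p = 0.126). Pigl had a Bio fold of 1.65 (paired p = 0.00538) and St7 a fold of 1.29 (paired p = 0.00402) in the authors' deposited table, while Rbms3, Klhl26 and Scoc had folds of 0.824, 0.972 and 0.943.

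For Srpx the most similar were Eef1a2, a translation factor of neurons and muscle (r = 0.979), Rcl1, a factor of ribosome assembly (0.969), the G protein subunit Gng4 (0.963), the chemokine Ccl19 (0.962) and the synaptotagmin Syt4, a vesicle protein (0.959). Syt4 was at 4.11 in Wnt+ and 3.11 in SF1+ (difference 1.00, SE 0.22, limma adjusted p = 0.118). For Srpx2, whose 7 values are all below the array medians, the highest r were those of Arhgef28 (0.977), Slc4a2 (0.971), Sorbs3 (0.956), Zfp865 (0.950) and Cox8b (0.933). The limma adjusted p of these 5 lay between 0.635 and 0.966.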

How the data were processed

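The values are log2 expression per transcript cluster of Mouse Gene ST strip arrays, as the authors deposited them. They come from RMA on perfect-match probes, per the file headers, and from the oligo package, per the submitters' processing notes. RMA equalises the distributions of the arrays. Tool versions and the genome build were not stated. Per the labels' protocols, viable GFP-positive cells (10000 to 50000 per sort) gave 5 ng of RNA for amplification. Beside these values, the authors' deposited table lists p-values and a linear fold for Wnt over SF1 and for Bio over vehicle; the sample values behind Bio were not analysed here. The 7 sample columns of a drawing sheet were not used.

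Of 28944 clusters, 23812 had a symbol, and Entrez identifiers of 23508 matched RefSeq (GRCm38.p6) for current symbols. A gene with several clusters took the one with the highest mean, which left 20719 genes. The group difference was estimated with limma 3.58.1 (R 4.3.3; lmFit, eBayes, group as the sole term) and adjusted by Benjamini-Hochberg over all genes, threshold 0.05, two-sided. The scripts were tested on simulated data. Figures used matplotlib 3.10.9.

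The members, the 13 lists and the naming rule were chosen with earlier results of these data known. The rule named the members, the 5 most similar genes of each, and list genes past the threshold, of a set textbook role or with the smallest p. Same-numbered arrays did not deviate together (r = -0.217, 0.034 and -0.214 for numbers 1, 2 and 3), so the numbers were not taken as pairs. Alternatives are given in the closing section. The number of arrays limits the precision.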

Additional observations from a re-analysis of the deposited data

Results flagged for a closer look

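Klhl26, one of the 5 genes most similar to Ccdc80, had 1 SF1+ array far from the others. Its log2 values were 3.44, 3.34 and 3.43 in Wnt+ replicates 1, 2 and 3, and 3.20, 3.13, 2.73 and 3.14 in SF1+ replicates 1, 2, 3 and 4. The gap below SF1+ replicate 2 was 0.853 of the group's range, above Dixon's critical value for 4 samples. Of 18 genes examined in this way 1 was marked, and chance marks about 1 in 20 of genes not chosen by their pattern. Klhl26 was chosen for its likeness to Ccdc80, whose lowest SF1+ array was also replicate 3 (3.49). That rate therefore does not apply to it.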

How the results depend on the processing

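The differences of Ccdc80, Srpx and Srpx2 kept their sign and stayed short of the threshold under every alternative run. With each array left out in turn they were 0.44 to 0.72, 0.38 to 0.68 and 0.03 to 0.17. Under the other settings, Ccdc80 was 0.59 to 0.61 (adjusted p of 0.162 to 0.495) and Srpx 0.52 to 0.54 (0.128 to 0.416). With dim genes left out, Srpx and Srpx2 had no value. With the replicate number as a block, Ccdc80 differed by 0.59 (limma adjusted p = 0.495), Srpx by 0.53 and Srpx2 by 0.09, and 0 genes passed (2468 at an unadjusted p under 0.05). Of all genes, 53 passed in the fit reported, 1 to 312 with each array left out, 221 with dim genes left out, 155 with trended and robust moderation, 27 with arrays centred, 33 with array weights and 1 at a threshold of 0.01. By the authors' p-values after adjustment, added after the data were seen, 0 passed (2684 unadjusted). With dim genes left out, which shortens the lists, the median was 0.87 for Schwann, -0.37 for adipocyte, 0.53 for Wnt target, 0.34 for sushi and -0.82 for urokinase genes. The matricellular median was 0.082 to 0.51 with each array left out. The cause of the other changes was not tested. The deposited value table equals the workbook within 5e-09 and was not refitted. Dim signal limits Srpx and Srpx2, and Ccdc80 in SF1+ replicate 3 was 0.35 above its array's median.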
